A study of Mus musculus with 30 samples.

Results

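Genes of the BMP, TGF-beta and Nodal pathways were followed through the formation of mouse retinal organoids, from stem cells at day 0 (D0) to dissected neural retina at D32. The 65 members were chosen by gene symbol: the protein-coding genes named Bmp, Gdf, Inh or Tgfb with a number or letter, Nodal, Lefty1 and Lefty2, their Acvr, Bmpr and Tgfbr receptors, the Smad genes, antagonists such as Nog, Chrd, Fst, the Fstl genes and Grem1, and Id1 to Id4. They are 65 of the 45594 genes in the count table, and 62 of them were among the 19897 genes with enough reads to be tested. Bmp10, Gdf1 and Inhbe were not tested.

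The organoids came from 1 clone of induced pluripotent stem cells (iPSCs), made from Nrl-GFP fibroblasts of embryonic day 14.5 with c-Myc, Klf4, Oct3/4 and Sox2 on doxycycline-inducible lentiviruses. Nrl-GFP is a reporter in which the promoter of the rod factor Nrl drives a fluorescent protein, and the line is otherwise wild type, so every group shares 1 genotype. RNA-seq libraries with poly(A) selection were made on 10 days, with 3 libraries on each: D0, D4 and D7, then D10, D12 and D15, D18 and D22, and last D25 and D32. D0 was iPSCs kept on feeder cells with LIF and 15% serum, D4 was whole aggregates in a medium with 1.5% serum replacement, and from D7 on only neural retina cut from the organoids was used. Matrigel was added on day 1. The medium changed at D7, at D10, when taurine, 9-cis retinal at 500 nM and IGF1 at 100 ng/ml came in, and at D26, when B27 and 2% serum were added, and oxygen went from 5% to 20% at D10. Material differed in the comparisons with D0 or D4, which also span changes of medium. D7 to D18 spans the changes of medium and oxygen at D10, and D18 to D32 the medium change at D26. Within each comparison these changes cannot be told apart from time.

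Ligands of this family are secreted dimers that bring together type I and type II receptor kinases at the cell surface. Receptors for Nodal, activins and TGF-betas phosphorylate SMAD2 and SMAD3, those for BMPs and many GDFs phosphorylate SMAD1, SMAD5 and SMAD9, and both groups of SMADs enter the nucleus with SMAD4. Nodal signalling and its Lefty inhibitors are known from pluripotent cells and early patterning, while BMP signals pattern the optic vesicle and the dorsal retina, where Id genes are common targets of BMP.

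The 30 libraries held 16.77 to 24.53 M estimated counts, with a median of 19.23 M. Levels are given as CPM, counts per M counts of a library after TMM scaling, without correction for transcript length, so they are compared between days and not between genes. Differences are log2 changes with their standard error (SE) and an adjusted p from edgeR's quasi-likelihood test over all tested genes, and a gene was called at an adjusted p below 0.05. Such p-values measure the spread between these libraries. In bulk RNA, a lower level can come from fewer cells of a type or from less RNA per cell, and these cannot be told apart.

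D4 replicate 3 stood apart from the other D4 libraries. Its 6 retinal progenitor markers summed to 712 CPM, against 161 and 107 CPM in D4 replicates 1 and 2 and 659 to 827 CPM at D7. Its 5 pluripotency markers summed to 47.5 CPM, against 329 and 599 CPM. D4 replicate 2 differed in another way: 17.6% of its counts came from Rn18s-rs5, a ribosomal RNA gene, against at most 0.131% elsewhere, and its TMM factor was the lowest at 0.524. The libraries also fell into 2 sets by the share of Rpl3 counts assigned to pseudogenes, 12% to 31.8% in 12 libraries (set 1, all of D0 and D7 and replicate 2 of D10 to D25) and 70.9% to 86.5% in the other 18 (set 2). Over D10 to D25, where both sets are present, 861 of 18291 genes (4.71%) and 2 of 55 members (3.64%) differed between sets. These members were Bmp7, lower by 0.61 in set 1 (SE 0.13, adjusted p = 0.011), and Bmpr2, higher by 0.25 (SE 0.06, adjusted p = 0.028). D0 and D7 hold only set 1 and D4 and D32 only set 2.

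Over all 10 days, 60 of 62 members changed (96.8%), beside 91.4% of all tested genes. The exceptions were Gdf5 and Gdf9. Over the 8 days of neural retina, D7 to D32, 52 members changed (83.9%), beside 76.1% of all genes. Both shares lie near their background. The day of the highest mean was less evenly placed: 15 members (24.2%) peaked at D7 and 10 (16.1%) at D10, beside 8.43% and 7.12% of all tested genes. Another 15 members (24.2%) peaked at D0, where 23% of all genes did. At D4 there was 1 member peak (1.61%, all genes 15.5%), and at D32 there were 7 (11.3%, all genes 21.3%).

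**Figure D1:**
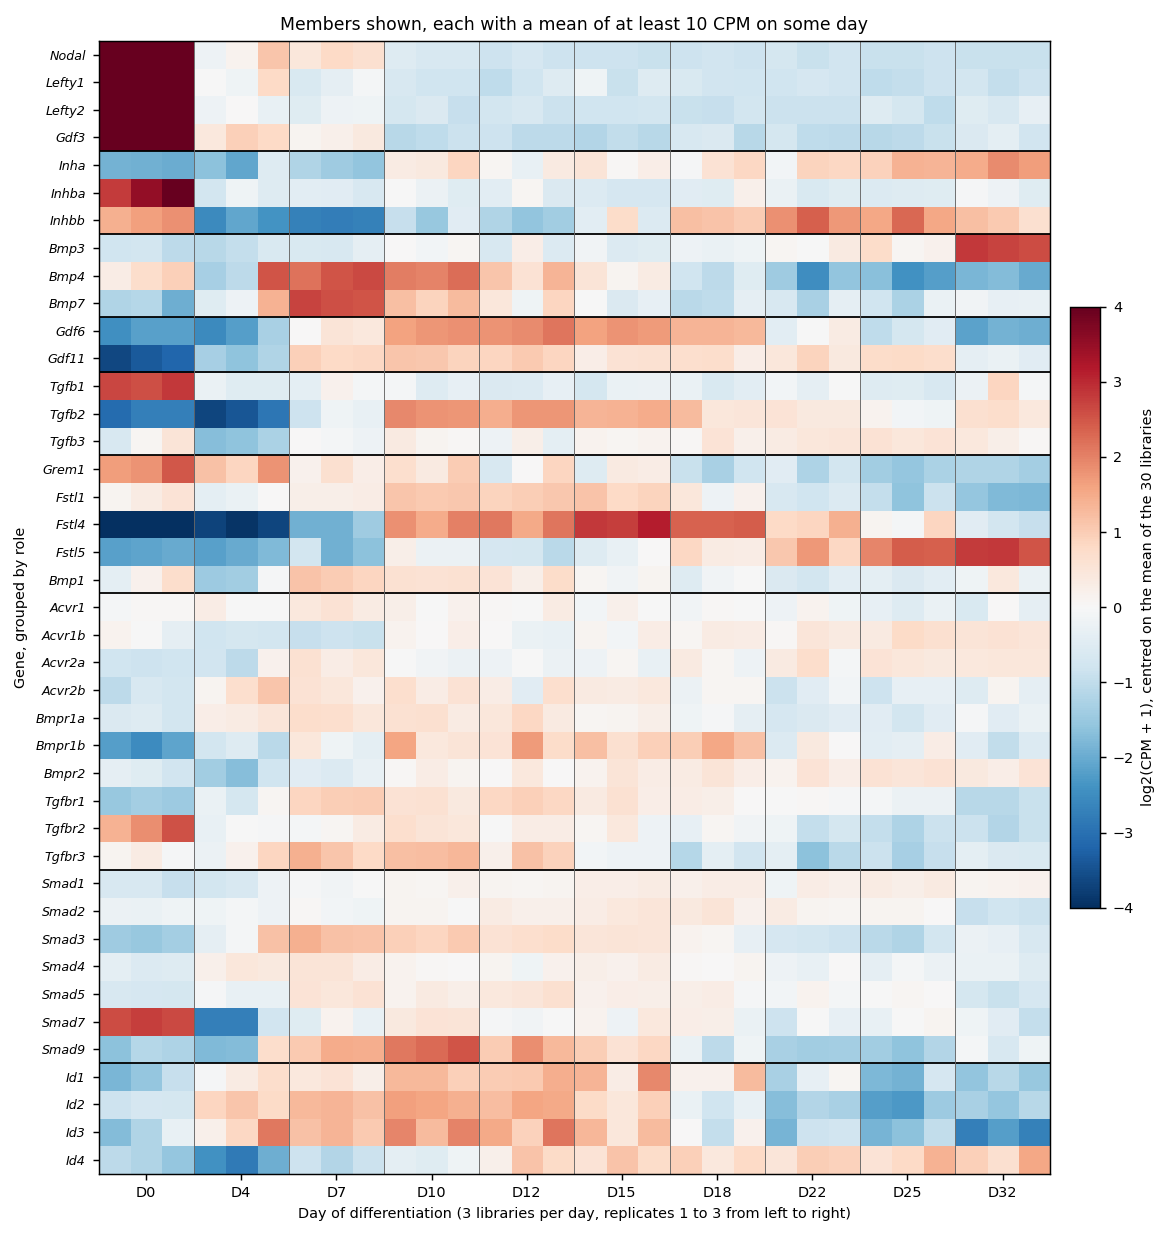
Level of 41 of the 65 members, each with a mean of at least 10 CPM on some day, as log2(CPM + 1) minus the gene's mean over the 30 libraries, with genes in rows grouped by role and libraries in columns grouped by day. Colours stop at -4 and 4, values run from -4.16 to 5.78, and the genes of the Nodal block stand out at D0 while Bmp4 and Bmp7 stand out at D7.

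Nodal, the Lefty genes and Gdf3 were high in iPSCs and low from D4 on. Nodal itself (ENSMUSG00000037171, chr10:61417972-61425338, GRCm38.p4), a ligand of the activin type receptors, stood at 41.8, 45.4 and 43.8 CPM in the 3 D0 libraries and at 0.626, 1.03 and 2.98 CPM at D4. The D0 libraries were all far above the D4 libraries, of which replicate 3 was the highest. The fall from D0 to D4 was by 4.81 (SE 0.45, adjusted p = 5.3e-09), and by 5.74 without D4 replicate 3. Nodal fell again by 4.75 from D7, where its mean was only 1.9 CPM, to D18 (SE 0.63, adjusted p = 1.2e-06). The transcript Nodal-001 had a mean of 0.065 CPM at D18, and no Nodal read was counted in any D32 library.

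The Lefty genes encode secreted inhibitors of Nodal and are themselves targets of its signal. Lefty1 was at 69.2, 101 and 93.2 CPM at D0 and at 1.01, 0.772 and 2.51 CPM at D4, a fall by 5.9 (SE 0.5, adjusted p = 4.6e-10), or by 6.56 without D4 replicate 3. Lefty2 (ENSMUSG00000066652, chr1:180893108-180899103) was at 104, 109 and 88.9 CPM at D0 and at 0.726, 1.01 and 0.65 CPM at D4, a fall by 6.98 (SE 0.4, adjusted p = 4.9e-13). For both genes the D0 and D4 libraries did not overlap. At D7 Lefty1 and Lefty2 were lower than at D0 by log2 changes of -7.18 (SE 0.54, adjusted p = 3.3e-11) and -7.26 (SE 0.41, adjusted p = 1.7e-13). Lefty1 and Lefty2 are near copies, and reads that match both are shared out by the quantifier, so the split between them is uncertain.

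Gdf3, a relative of Nodal expressed in pluripotent cells, was at 84.9, 88.3 and 108 CPM at D0 and at 2.04, 3.4 and 2.94 CPM at D4. It fell by 5.06 to D4 (SE 0.41, adjusted p = 2.5e-10) and its change from D0 to D7 was -5.82 (SE 0.43, adjusted p = 2.4e-11). Nodal stood at a change of -4.52 at D7 (SE 0.44, adjusted p = 6e-09). All 4 tested genes of this group fell from D0 to D4 (24.8% of all genes did), with a median log2 change of -5.48, beside 0.02 over all genes. Gdf1, the other ligand known to pair with Nodal, was untested: it was counted in 1 D0 library, at 0.00237 CPM, and in D4 replicate 2, at 1.71 CPM. Gdf1 overlaps Cers1 on the same strand, so its reads cannot be placed with certainty.

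Among the partners of Nodal outside the family, the co-receptor gene Tdgf1 went from a mean of 659 CPM at D0 to 5.3 CPM at D4, a change of -6.95 (SE 0.36, adjusted p = 5.6e-14), and to 1.86 CPM at D7 (change from D0 -8.48, SE 0.39, adjusted p = 4.6e-15). Foxh1, the nuclear partner of SMAD2 in Nodal signalling, kept a different course. Its mean was 35.2 CPM at D0 and 62.8 CPM at D4, and it fell to 1.44 CPM at D7, by 5.43 from D4 (SE 0.57, adjusted p = 8.7e-08). Compared with D0, the D7 level of Foxh1 was lower by a log2 change of -4.6 (SE 0.56, adjusted p = 1.1e-07).

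Activin subunits, the inhibitory SMAD gene Smad7 and Tgfb1 left the iPSC state with the Nodal group. Inhba encodes the beta A subunit of activin and was at 11.1, 19.1 and 39.8 CPM at D0 and at 0.0578, 0.56 and 0.224 CPM at D4, a fall by 6.47 (SE 0.67, adjusted p = 1.6e-08). At D7 its change from D0 was -6.6 (SE 0.67, adjusted p = 6.4e-09), and without D0 replicate 3, the highest library, the 2 changes were -5.83 and -5.95. Without D4 replicate 2 the change to D4 was -7.32. Smad7, whose product blocks the receptors and is induced by the pathway, was at 71, 78.7 and 73.2 CPM at D0 and at 0.776, 0.794 and 5.89 CPM at D4. The 2 low D4 libraries are replicates 1 and 2, and the change was -4.85 (SE 0.46, adjusted p = 4e-09) with replicate 3 and -6.53 without it. Tgfb1 fell from 13.4, 12.6 and 15 CPM to 0.882, 0.628 and 0.612 CPM, by 4.24 (SE 0.42, adjusted p = 7.8e-09), and stayed under 2 CPM in its day means thereafter.

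Tgfbr2, the type II receptor for TGF-betas, fell by 2.64 from 7.16 to 17.4 CPM at D0 to 1.54, 2.07 and 2.03 CPM at D4 (SE 0.37, adjusted p = 1.5e-06). In this gene, as in Inhba, Grem1, Bmp1, Tgfb3, Id1 and Id3, D0 replicate 1 was the lowest and D0 replicate 3 the highest. Gdf3, Bmp4 and Gdf11 had this order too, while Nodal, Lefty1 and Smad7 did not. The share of all genes with this order was not counted. The 8 markers of feeder fibroblasts and mesenchyme had the same order at D0, with sums of 486, 781 and 1290 CPM and 7 of 8 at 1 CPM or more, and summed to 40.3 to 88.7 CPM at D4 with none at 0. Their part in the falls of Inhba and Tgfbr2 and in the D0 levels of the others was not tested.

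From D0 to D4, 19 members were called higher (30.6%, all genes 27%) and 23 lower (37.1%, all genes 24.8%), with a median change of -0.08 beside 0.02 over all genes. With library size alone in place of TMM, the median change of all genes was -0.18 from D0 to D4, 0.4 from D4 to D7, 0.19 from D0 to D7 and 0.17 from D7 to D18. The members in that scaling numbered 14 higher and 25 lower from D0 to D4, and no call of a named change turned its direction.

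**Figure D2:**
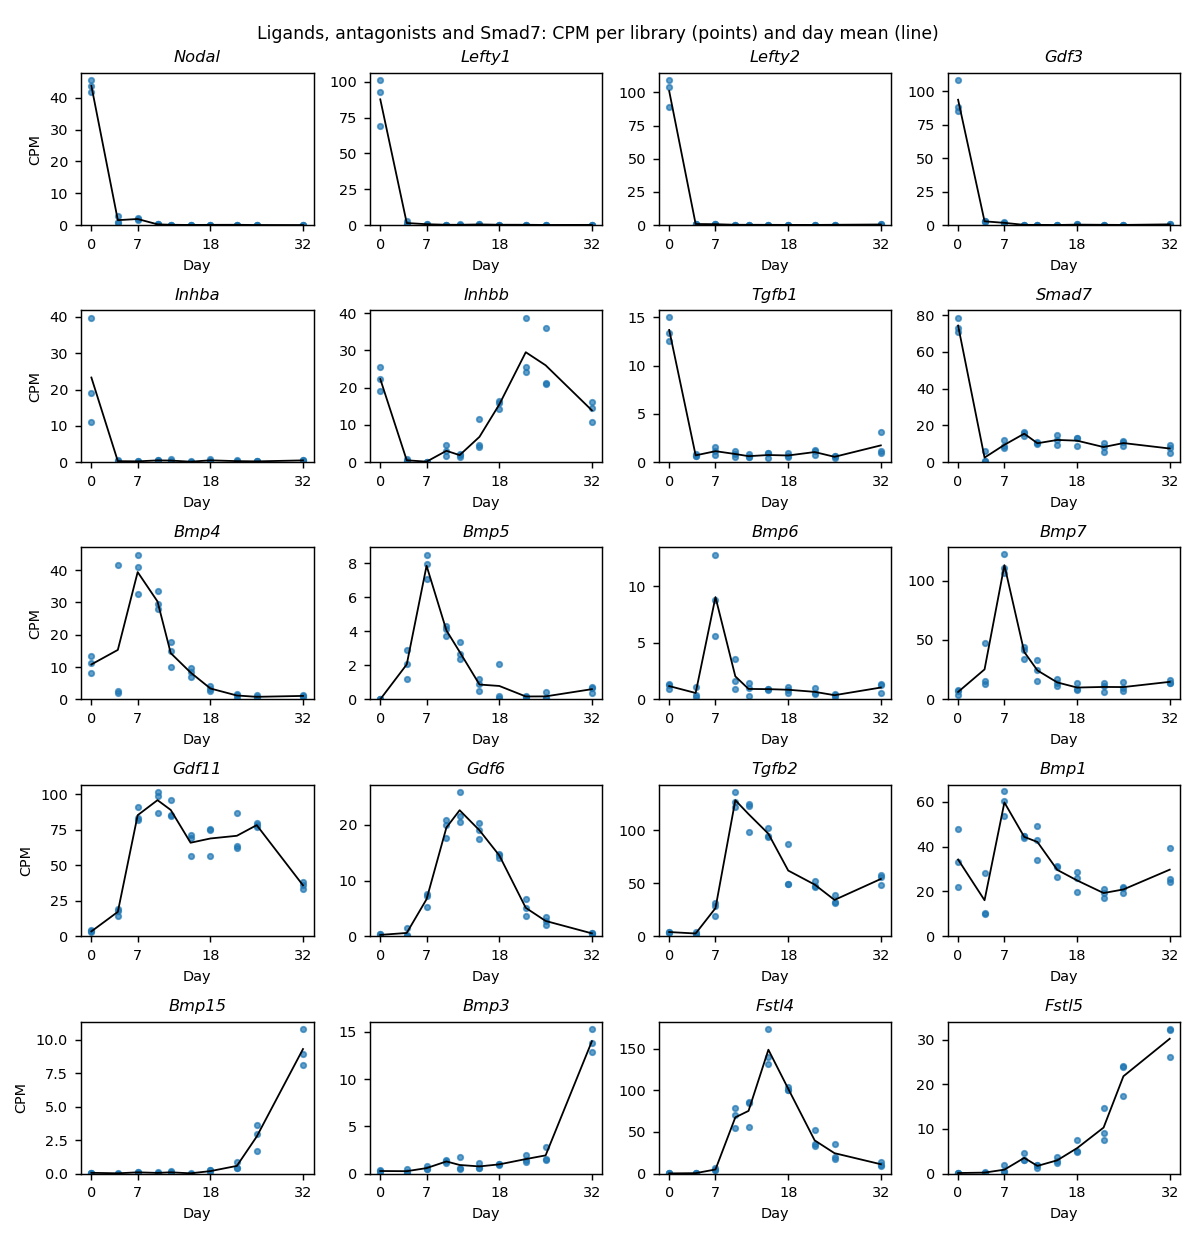
Level in CPM (vertical axes, linear, each scaled to its gene) against day of differentiation for 20 ligand, antagonist and inhibitor genes, with 1 point per library and a line through the day means of 3 libraries. The Nodal group drops between D0 and D4, Bmp4 to Bmp7 peak at D7, Gdf6, Tgfb2 and Fstl4 peak between D10 and D15, and Bmp15, Bmp3 and Fstl5 are highest at D32.

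Bmp4, Bmp5, Bmp6 and Bmp7 were higher at D7 than at D0 and lower at D18 than at D7. Of 9 tested Bmp ligand genes, 5 were higher at D7 than at D0 and 2 lower. Over the same span 30 of 62 members were called higher (48.4%, all genes 28.8%) and 18 lower (29%, all genes 29.6%), with a median change of 0.88 beside 0. From D4 to D7 there were 27 members higher (43.5%, all genes 20%) and 5 lower (8.06%, all genes 22.8%), with a median of 0.67 beside -0.01. The 5 lower members were 2 without D4 replicate 3, and 15 in place of 27 were higher in a fit to these 6 libraries alone.

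Bmp7 (ENSMUSG00000008999, chr2:172868012-172940321), a ligand needed for early eye development, stood at 7.21, 7.5 and 3.87 CPM at D0, at 12.5 CPM or more in every D4 library and at 122, 111 and 106 CPM at D7. The 3 days did not overlap, and D4 replicate 3, at 47.8 CPM, lay between the other D4 libraries and D7. Bmp7 rose by 2.02 from D0 to D4 (SE 0.4, adjusted p = 0.00014) and by 2.16 from D4 to D7 (SE 0.38, adjusted p = 8.2e-05), which were 1.18 and 3.03 without D4 replicate 3. With the library set as a term these changes were 1.41 and 2.77. The whole rise from D0 to D7, between libraries of 1 set, was 4.18 (SE 0.43, adjusted p = 6.4e-09). By D18 Bmp7 was at 7.81, 8.31 and 13.6 CPM, below D7 by a change of -3.51 (SE 0.41, adjusted p = 1.1e-07).

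Bmp4 (ENSMUSG00000021835, chr14:46383520-46390669), the ligand of the dorsal optic vesicle, was at 8.01, 11.1 and 13.4 CPM at D0 and at 32.5, 41.1 and 44.8 CPM at D7. At D4 it was at 1.92 and 2.56 CPM in replicates 1 and 2 and at 41.5 CPM in replicate 3, so that the D4 libraries lay on either side of D0 and neither step through D4 was called. The D7 libraries were above all D0 libraries by a change of 1.86 (SE 0.65, adjusted p = 0.016), but without D0 replicate 1 this call was lost (adjusted p = 0.058). Bmp4 fell by 3.55 from D7 to D18 (SE 0.71, adjusted p = 0.00017), where it was at 3.26, 2.56 and 4.24 CPM.

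Bmp5 and Bmp6 are close relatives of Bmp7. No Bmp5 read was counted at D0, and its mean was 2.05 ± 0.855 CPM (SD, n = 3) at D4 and 7.85 ± 0.716 CPM at D7, at least 37.4-fold and at least 143-fold above a floor of 3 counts over the 3 D0 libraries. It then fell by 3.33 to D18 (SE 0.67, adjusted p = 0.00025), a change that was -5.95 without D18 replicate 3, which at 2.08 CPM was above the other two at 0.0575 and 0.213 CPM. Bmp6 stood at 1.32, 1.29 and 0.919 CPM at D0 and at 12.8, 8.75 and 5.62 CPM at D7, a rise of 2.93 (SE 0.54, adjusted p = 4.9e-05). Its fall to D18 was by 3.41 (SE 0.55, adjusted p = 1.5e-05), to a mean of 0.845 CPM, so all of Bmp4, Bmp5, Bmp6 and Bmp7 were back below their D7 libraries.

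Bmp2, which shares receptors with Bmp4, had means of 0.524 CPM at D0, 0.0632 CPM at D4 and 1.83 CPM at D7, a rise of 1.79 over D0 (SE 0.47, adjusted p = 0.0019), and kept day means of 1.29 to 1.83 CPM up to D32. Bmp8a and Bmp8b were lower at D7 than at D0, by changes of -3.14 and -3.45, from means of 1.17 and 4.35 CPM. They are near copies of each other whose reads may be shared. Bmp10, a heart ligand, was untested, with its highest library at 0.356 CPM on D7.

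Pigment epithelium markers moved over the same days. The 6 markers summed to 830 to 1010 CPM at D7, 1020 to 1180 CPM at D10, 215 to 477 CPM at D12 and 43.3 to 66.8 CPM at D18, with 5 of 6 at 1 CPM or more and Rpe65 at 0 on D7 and D18. The 5 telencephalon and cortical hem markers summed to 80.1 to 109 CPM at D7 and 3.32 to 14.2 CPM at D18. The part of these cells in the levels of Bmp4 to Bmp7 was not tested. In D4 replicates 1, 2 and 3 the pigment epithelium markers summed to 7.01, 4.49 and 34.2 CPM and the telencephalon and cortical hem markers to 20, 17.4 and 70.3 CPM.

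The antagonist genes Nog and Fst also had their highest means at D7, though Fst was already near that level at D4. Nog, which binds BMPs directly, was at 0.219, 0.257 and 0.23 CPM at D0 and at 3.4, 3.33 and 2.72 CPM at D7, a rise of 3.7 (SE 0.76, adjusted p = 0.00016). It fell by 2.4 to D18 (SE 0.67, adjusted p = 0.0044). Fst, which binds activins and some BMPs, had means of 8.49 ± 3.91 CPM at D4 and 9.8 ± 0.629 CPM at D7. Its libraries overlapped between these days, and the change of 0.2 was not called (SE 0.49, adjusted p = 0.77). At D18 Fst was at 0.49, 0.558 and 0.884 CPM, a fall by 3.92 from D7 (SE 0.58, adjusted p = 3.8e-06). In both genes every D18 library was below every D7 library. At D4, Nog was at 0.228 and 0 CPM in replicates 1 and 2 and at 2.6 CPM in replicate 3, and its call from D0 to D4 (2.02, adjusted p = 0.034) turned to -0.85 without that library.

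Chrd, another direct BMP binder, peaked later, with a mean of 9.12 ± 2.19 CPM at D10. Grem1 went the other way: from 22.7, 25 and 40.6 CPM at D0 it was at 15.8, 12.5 and 24.9 CPM at D4 and 7.44, 10.6 and 7.85 CPM at D7. The change from D4 to D7 was -1.04 (SE 0.35, adjusted p = 0.02) but was not called without D4 replicate 3 (-0.7, adjusted p = 0.12), without D7 replicate 1 or 3, with library size alone, or with the library set as a term. Grem1 fell by 1.63 from D7 to D18 (SE 0.37, adjusted p = 0.00074). Bmp1, a protease that cleaves Chrd and procollagens, was at 9.9, 10.5 and 28 CPM at D4 and at 64.8, 60.3 and 53.7 CPM at D7, a rise of 1.88 (SE 0.29, adjusted p = 1.8e-05), or 2.56 without D4 replicate 3. Its D7 libraries were above those of all other days, and it fell by 1.26 to D18 (SE 0.29, adjusted p = 7e-04).

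Gdf11, Gdf6 and Tgfb2 were high on days when Bmp4, Bmp5, Bmp6 and Bmp7 had declined. Gdf11 (ENSMUSG00000025352, chr10:128882295-128891718), a ligand that acts through activin receptors and is known to limit ganglion cell production, was at 2.81, 3.6 and 4.25 CPM at D0, at 17.9, 14.5 and 19.6 CPM at D4 and at 91.1, 82 and 83.1 CPM at D7. It rose by 2.29 to D4 (SE 0.17, adjusted p = 3.7e-11) and by 2.3 to D7 (SE 0.15, adjusted p = 6.5e-11), 4.58 in all (SE 0.18, adjusted p = 2e-16). The 3 days were well apart and D4 replicate 3 was not an exception here. Gdf11 stayed at day means of 66 to 96 CPM from D10 to D25 and was at 36.2, 38.5 and 33.4 CPM at D32, below D18 by a change of -0.94 (SE 0.15, adjusted p = 1e-05).

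Gdf6, a BMP-like ligand of the dorsal eye, came up later and went away. It was at 0.11, 0.36 and 0.345 CPM at D0, 5.19, 7.67 and 7.16 CPM at D7, 20.5, 21.6 and 25.9 CPM at D12 and 14.6, 14.7 and 14.1 CPM at D18. At D32 it was back at 0.388, 0.655 and 0.593 CPM, a fall by 4.71 from D18 (SE 0.46, adjusted p = 5.7e-09). Tgfb2 stood at 1.88, 2.41 and 3.91 CPM at D4, at 19.6, 31.1 and 28.9 CPM at D7 and at 136, 126 and 122 CPM at D10, its peak. It rose by 3.27 from D4 to D7 (SE 0.24, adjusted p = 3.8e-10) and by 2.69 from D0 to D7 (SE 0.23, adjusted p = 3.1e-10). At D18 it was at 86.6, 49.4 and 49.7 CPM, still above D7 by 1.22 (SE 0.21, adjusted p = 2.4e-05). Both genes thus peaked after Bmp4 and Bmp7, and Tgfb2 kept 54 ± 5.18 CPM (SD, n = 3) at D32.

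Tgfb3 fell by 1.97 to D4 (SE 0.26, adjusted p = 6.6e-07) and rose by 1.8 to D7, with day means of at least 7.59 CPM from D7 on. Tgfb3 overlaps Ttll5, so some of its reads are uncertain. Gdf10, also called BMP3B, went from 0.055, 0 and 0.115 CPM at D0 to 4.37, 4.83 and 3.75 CPM at D7, a rise of 6.14 (SE 0.45, adjusted p = 1.8e-11), or 7.05 without D0 replicate 3. The other Gdf genes were low on all days: Gdf7 peaked at D7 with a mean of 0.888 CPM, Gdf2 was at 0.339 to 0.692 CPM from D15 on, and Gdf15 had means of 1.49 CPM at D0 and at D32 with 0.0362 CPM at D7. Gdf5 lay between 0.103 and 0.574 CPM and Gdf9 between 0.384 and 1.27 CPM in their day means.

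Inhbb, Inha and the follistatin-like genes changed on the later days. Inhbb (ENSMUSG00000037035, chr1:119415465-119422248), which encodes the beta B subunit of activin B, was at 19.1 to 25.6 CPM at D0, at 0.284, 0.792 and 0.441 CPM at D4 and at 0.153, 0.107 and 0.17 CPM at D7. It had fallen by 5.51 to D4 (SE 0.45, adjusted p = 2.2e-10) and its change from D0 to D7 was -7.21 (SE 0.51, adjusted p = 1.2e-11). It came back to 16.4, 15.8 and 14.2 CPM at D18, 6.69 above D7 (SE 0.51, adjusted p = 9.7e-11), and peaked at 25.5, 38.8 and 24.2 CPM at D22. The gene was thus high in iPSCs and again in the maturing retina, with a gap between. Inha, the inhibin alpha subunit that turns a beta subunit into an antagonist of activin, was also higher at D18 than at D7. It went from 1.98, 1.56 and 1.31 CPM at D7 to 5.75, 9.39 and 11.3 CPM at D18, by 2.44 (SE 0.41, adjusted p = 2.1e-05). Inha came up sooner than Inhbb. The transcript Inha-001 had means of 9.16 CPM at D10 and 8.81 CPM at D18, and Inhbb-001 of 3.08 and 15.5 CPM. Inhba did not return: its day means stayed between 0.142 and 0.509 CPM from D4 on. Inhbc and Inhbe were under 1 CPM in every library.

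Fstl4, a follistatin-like gene, was at 4.17, 4.24 and 6.3 CPM at D7, at 140, 132 and 174 CPM at D15 and at 101, 100 and 104 CPM at D18, a rise of 4.37 from D7 (SE 0.26, adjusted p = 1.2e-12). It then fell by 3.19 to 13.3, 10.8 and 9.5 CPM at D32 (SE 0.24, adjusted p = 8.4e-11). Fstl1 was abundant throughout, with a mean of 289 ± 6.3 CPM at D10, and was at 185, 119 and 154 CPM at D18 and at 46.4, 39.8 and 38.2 CPM at D32, a fall by 1.88 (SE 0.17, adjusted p = 1.9e-09). Fstl5 kept climbing: 1.82, 0.246 and 0.528 CPM at D7, 7.41, 4.94 and 4.76 CPM at D18, and 26 to 32.4 CPM at D32. Its rises were 2.7 to D18 (SE 0.44, adjusted p = 1.4e-05), or 3.86 without D7 replicate 1, and 2.4 to D32 (SE 0.39, adjusted p = 1.5e-05). Fstl3 had its highest mean, 5.91 CPM, at D0 and fell by 3.93 to D7 (SE 0.39, adjusted p = 4.5e-09).

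From D7 to D18, 17 members were called higher (27.4%, all genes 26.8%) and 23 lower (37.1%, all genes 22.23%), with a median change of -0.26 beside 0.05. None of the 9 Bmp ligands was higher and 4 were lower. From D18 to D32, 11 members were higher (17.7%, all genes 20.6%) and 15 lower (24.2%, all genes 23.7%), with a median of -0.1 beside -0.01, and these shares lie near their background. With the libraries of set 2 alone, 7 members were higher.

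**Figure D3:**
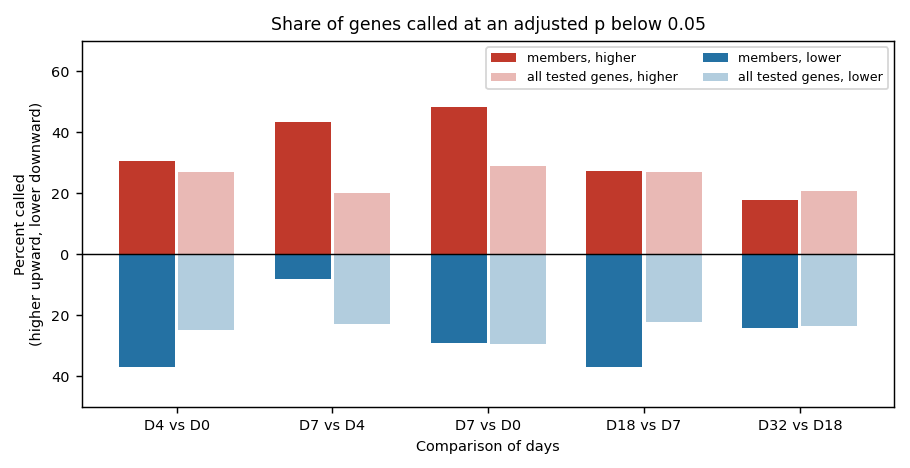
Percent of the 62 tested members (dark bars) and of all 19897 tested genes (light bars) called at an adjusted p below 0.05 in each pair of days, with genes higher on the later day above 0 and genes lower below 0. Members called higher exceed all genes most from D4 to D7 (43.5% beside 20%) and from D0 to D7 (48.4% beside 28.8%), and those called lower exceed all genes from D0 to D4 and from D7 to D18.

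The members called higher from D18 to D32 (17.7%, all genes 20.6%) included Bmp15 and Bmp3. Bmp15 (ENSMUSG00000023279, chrX:6314107-6320721), a ligand best known from oocytes, was at 0.0445, 0.254 and 0.245 CPM at D18, at 2.99, 3.62 and 1.68 CPM at D25 and at 8.14, 10.8 and 8.95 CPM at D32, a rise of 5.66 from D18 (SE 0.56, adjusted p = 8.2e-09). Bmp3 (ENSMUSG00000029335, chr5:98854415-98884396), a BMP that acts against osteogenic BMPs, was at 0.966, 0.905 and 1.04 CPM at D18 and at 12.9 CPM or more in every D32 library (mean 14 ± 1.25 CPM, SD, n = 3), a rise of 3.86 (SE 0.45, adjusted p = 1.2e-07). Bmp15 was already above its D18 libraries at D22 and D25, while Bmp3 had no D25 library above 2.78 CPM.

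Acvrl1, a type I receptor best known from endothelium, went from 0.943, 0.685 and 1.23 CPM at D18 to 8.47, 9.17 and 5 CPM at D32, a rise of 2.97 (SE 0.42, adjusted p = 2.6e-06). Inha rose by 1.27 to 18.4, 24.5 and 21 CPM at D32 (SE 0.37, adjusted p = 0.0066), which was not called with the libraries of set 2 alone (adjusted p = 0.052). Gdf10 rose by 1.15 to a mean of 9.64 ± 0.732 CPM (SE 0.27, adjusted p = 0.0012). Tgfb1 (1.32, adjusted p = 0.0097) and Lefty2 (1.9, adjusted p = 0.012) were called from day means of 0.695 and 0.113 CPM at D18, and each call was lost when single libraries were left out: D18 replicate 2 or D32 replicate 2 for Tgfb1, and D18 replicate 2 or D32 replicate 3 for Lefty2.

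Between D18 and D32 the cell makeup also changed. Summed photoreceptor markers went from 379 to 627 CPM at D18 to 5000 to 6560 CPM at D32, and those of Müller glia and astrocytes from 35.9 to 38.4 CPM to 323 to 420 CPM. The 3 bipolar cell markers went from 0.608 to 2.24 CPM to 110 to 133 CPM. The 3 endothelial markers summed to 184 to 268 CPM at D18 and 208 to 266 CPM at D32. Their day means from D18 to D32 went from 219 to 246 CPM for Kdr, from 0.7 to 1.42 CPM for Pecam1 and from 0.0164 to 0 CPM for Cdh5. The part of these cells in the rises of Bmp15, Bmp3, Acvrl1 and Gdf10 was not tested.

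Receptor genes mostly rose from D0 to D7: of 12, 7 were called higher (58.3%, all genes 28.8%) and 3 lower (25%, all genes 29.6%), with a median change of 1.16 beside 0. Bmpr1a, the type I receptor for Bmp2 and Bmp4, was at 91.1, 94.2 and 81 CPM at D0 and at 223, 216 and 189 CPM at D7, a rise of 1.24 (SE 0.13, adjusted p = 1.6e-08). It fell by 0.82 to D18 (SE 0.13, adjusted p = 1.3e-05). Bmpr1b, the related receptor of the ventral retina, rose further, from 1.62, 1.13 and 1.78 CPM at D0 to 15.4, 9.72 and 8.29 CPM at D7 and 23, 34.2 and 26.3 CPM at D18. Its changes were 2.88 to D7 (SE 0.4, adjusted p = 9.2e-07) and 1.32 to D18 (SE 0.35, adjusted p = 0.0026), then -2.05 to 7.79, 5.09 and 7.31 CPM at D32 (SE 0.36, adjusted p = 3.8e-05). The paired type I receptors for BMP therefore moved in opposite directions from D7 to D18.

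Tgfbr1, the type I receptor for TGF-betas, was at 38.6, 42.7 and 40.4 CPM at D0, at 92.6, 68.2 and 119 CPM at D4 and at 204, 220 and 227 CPM at D7. It rose by 1.22 from D4 to D7 (SE 0.14, adjusted p = 2.3e-07) and by 2.42 from D0 to D7 (SE 0.14, adjusted p = 4.1e-13), and fell by 0.76 to D18 and by 1.24 more to D32 (SE 0.14 each, adjusted p = 4.5e-05 and 5.4e-08). Its partner Tgfbr2 was lower at D7 than at D0 by a change of -2.28 (SE 0.36, adjusted p = 5.5e-06) and had day means of 0.553 to 3.56 CPM from D4 on. Tgfbr3, the co-receptor betaglycan, was at 17.8, 14.2 and 11.1 CPM at D7 and at 2.17, 4.4 and 3.16 CPM at D18, a fall by 2.15 (SE 0.35, adjusted p = 1.7e-05).

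Acvr1b, the type I receptor for activin and Nodal, was lower at D7 than at D0 and higher again at D18. It was at 60.7, 55.5 and 42.7 CPM at D0, at 28.8, 30.9 and 29.5 CPM at D7 and at 58.9, 70.1 and 68.8 CPM at D18. The change was -0.83 to D7 (SE 0.14, adjusted p = 2.1e-05) and 1.15 to D18 (SE 0.14, adjusted p = 3.8e-07). The type II activin receptors Acvr2a and Acvr2b rose by 1.32 (SE 0.22, adjusted p = 1.4e-05) and 1.27 (SE 0.27, adjusted p = 0.00021) from D0 to D7, the former from 21.6, 21.2 and 21.6 CPM to 59.9, 47.4 and 53.1 CPM. Acvr2a overlaps Orc4 on the opposite strand, and how strand was used in counting is not given in the sources used here. Bmpr2 rose by 0.82 from D7 to D18 (SE 0.17, adjusted p = 0.00037) and Acvr1 by 0.46 from D0 to D7 (SE 0.16, adjusted p = 0.017), a call lost without D7 replicate 2 (0.4, adjusted p = 0.072). Acvr1c was under 3 CPM in every library, and its call from D0 to D4 (3.33, adjusted p = 0.016) rested on D4 replicate 1 at 2.84 CPM: without that library it was -3.92 (adjusted p = 0.11), and from summed transcripts -0.6.

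**Figure D4:**
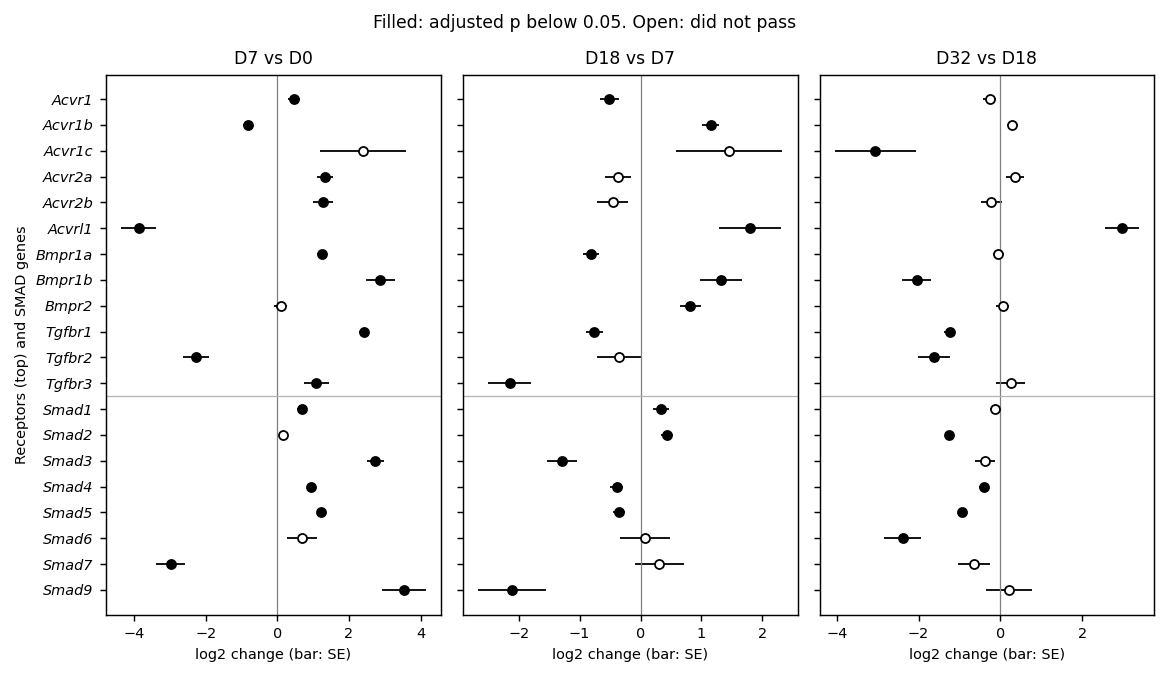
Log2 change (horizontal axes) with its SE as a bar for 12 receptor genes (top) and 8 SMAD genes (bottom), from D0 to D7, D7 to D18 and D18 to D32, with filled points where the adjusted p was below 0.05. Most points lie right of 0 in the D0 to D7 panel, and Acvrl1 is the filled point right of 0 in the D18 to D32 panel.

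Of the 8 SMAD genes, 5 were higher at D7 than at D0 (62.5%, all genes 28.8%), 1 was lower (12.5%, all genes 29.6%) and 2 were not called. Smad3, an effector of activin, Nodal and TGF-beta receptors, was at 22.7, 21.4 and 23.6 CPM at D0, at 48.4, 59.4 and 144 CPM at D4 and at 171, 144 and 139 CPM at D7. D4 replicate 3 was within the range of D7 and the other D4 libraries were not. Smad3 rose by 1.9 to D4 (SE 0.25, adjusted p = 5.9e-07), or 1.27 without D4 replicate 3, and by 2.74 to D7 (SE 0.25, adjusted p = 1.2e-09). It fell by 1.29 to 69.8, 65.8 and 49.8 CPM at D18 (SE 0.24, adjusted p = 7.8e-05).

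Smad2, the partner effector, differed in its course: no call was made up to D7, and its D18 libraries, at 93.6, 101 and 80.5 CPM, were above those of D7 by 0.44 (SE 0.1, adjusted p = 0.00057). By D32 Smad2 was at 37, 40.2 and 38.4 CPM, a fall by 1.25 (SE 0.1, adjusted p = 1.6e-10). Smad9, an effector of BMP receptors, was at 0.632, 1.32 and 1.19 CPM at D0, 0.512, 0.555 and 7.29 CPM at D4, 9.63, 13.5 and 13.1 CPM at D7 and 21.3, 23.5 and 28.1 CPM at D10. It rose by 3.53 from D0 to D7 (SE 0.61, adjusted p = 2.2e-05) and fell by 2.11 to D18 (SE 0.56, adjusted p = 0.0027). The step from D4 to D7 was 2.08 (SE 0.56, adjusted p = 0.0041), 4.51 without D4 replicate 3, and not called in a fit to these 6 libraries alone (adjusted p = 0.12).

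Smad5 and Smad1, the other BMP effectors, rose by 1.22 (SE 0.11, adjusted p = 3.6e-10) and 0.68 (SE 0.13, adjusted p = 5.2e-05) from D0 to D7. Smad5 then fell by 0.93 from D18 to D32 (SE 0.1, adjusted p = 6.6e-08), while the change of Smad1 was -0.13 (adjusted p = 0.43). Smad4, the shared partner, was at 83.1, 75.1 and 76.1 CPM at D0 and at 158, 159 and 136 CPM at D7, a rise of 0.95 (SE 0.11, adjusted p = 6.1e-08). Smad6, an inhibitory SMAD gene, peaked at D10 with a mean of 9.69 ± 2.53 CPM and fell by 2.39 from D18 to D32 (SE 0.45, adjusted p = 1e-04). Smad7 did not regain its D0 level: its day means were 7.43 to 15.5 CPM from D7 on, and the change from D0 to D7 was -2.98 (SE 0.41, adjusted p = 1e-06).

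Id genes encode helix-loop-helix proteins that hold back neurogenic factors, and Id1, Id2 and Id3 rose from D0 to D4 and fell from D18 to D32. The 250 bases before the RefSeq start of Id2, Id3 and Id4 (GRCm38.p6) are shown. Id4 took another course than Id2 and Id3, and whether the motifs bear on this was not tested. Capitals mark GGCGCC, a motif known for BMP SMADs, and CAGAC on either strand, the short SMAD box.
Id2: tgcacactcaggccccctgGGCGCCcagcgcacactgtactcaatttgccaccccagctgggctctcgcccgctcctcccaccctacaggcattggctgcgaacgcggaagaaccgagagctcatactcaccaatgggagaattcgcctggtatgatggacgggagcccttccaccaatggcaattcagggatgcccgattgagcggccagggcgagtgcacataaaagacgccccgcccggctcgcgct
Id3: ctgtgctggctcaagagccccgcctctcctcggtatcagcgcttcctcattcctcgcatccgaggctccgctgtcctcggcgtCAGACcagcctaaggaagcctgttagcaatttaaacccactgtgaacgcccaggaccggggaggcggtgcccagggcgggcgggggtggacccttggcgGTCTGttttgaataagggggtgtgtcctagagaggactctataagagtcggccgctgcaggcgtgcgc
Id4: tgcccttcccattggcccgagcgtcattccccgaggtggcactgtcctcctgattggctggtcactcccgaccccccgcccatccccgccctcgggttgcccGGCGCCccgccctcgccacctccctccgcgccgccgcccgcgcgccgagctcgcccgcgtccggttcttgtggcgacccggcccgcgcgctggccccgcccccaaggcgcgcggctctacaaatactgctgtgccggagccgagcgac
The windows are chr12:25096093-25096342 (minus strand), chr4:136143572-136143821 (plus) and chr13:48260866-48261115 (plus). The Id3 window lies inside the Id3 gene of the count table, which starts at 136143497. Id2 and Id4 held 1 GGCGCC each, 231 and 148 bases before the start, and Id3 held 2 copies of CAGAC. Of 32851 promoters of the same length, 9.59% held GGCGCC and 42.2% CAGAC on either strand. Copies of the motifs can share a base at their ends. Among the 45 members with a promoter entry, 10 held GGCGCC and 22 CAGAC. A member was counted if any of its promoter entries held the motif. The percentages above are of single promoters, so the counts cannot be set against them. A match in these letters is no measure of binding.

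Id2 was at 34.9, 38.7 and 37.6 CPM at D0, at 114, 136 and 106 CPM at D4, at 155, 162 and 142 CPM at D7 and at 198, 189 and 169 CPM at D10. It rose by 1.68 to D4 (SE 0.2, adjusted p = 1.3e-07), and its fall from D7 to 51.5, 35.5 and 50.4 CPM at D18 was by 1.74 (SE 0.2, adjusted p = 7.9e-08). Id3 was at 18.4, 27.2 and 51.5 CPM at D0, at 72.9, 115 and 279 CPM at D4 and at 250, 155 and 256 CPM at D10. Its rise to D4 was 2.27 (SE 0.45, adjusted p = 0.00014), or 1.55 without D4 replicate 3. It fell by 1.4 from D7 to D18 (SE 0.43, adjusted p = 0.0088), a call lost without D18 replicate 2 (-1.13, adjusted p = 0.058), and by 2.45 from D18 to 8.81, 13 and 8.97 CPM at D32 (SE 0.46, adjusted p = 9.6e-05).

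Id1 was at 5.9, 7.53 and 12 CPM at D0 and at 22.7, 29.7 and 39.2 CPM at D4, a rise of 1.85 (SE 0.42, adjusted p = 0.00057). Its mean peaked at D15 with a wide spread, 62.9, 29.6 and 92.6 CPM, and it fell by 2.14 from 26.5, 26.8 and 58.6 CPM at D18 to 7.27, 10.5 and 7.65 CPM at D32 (SE 0.41, adjusted p = 0.00014). Id4 took another course. It fell by 1.83 from D0 to D4 (SE 0.41, adjusted p = 0.00054), or by 2.52 without D4 replicate 3, and rose by 2.22 from D4 to D7 (SE 0.4, adjusted p = 1e-04), or by 2.95 without that library. It rose by 1.95 more from 3.86, 2.85 and 3.78 CPM at D7 to 15.8, 10.6 and 14.2 CPM at D18 (SE 0.34, adjusted p = 3.4e-05). At D32 Id4 was at 15.8, 12.5 and 24.4 CPM, and its change from D18 was 0.37 (adjusted p = 0.36).

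**Figure D5:**
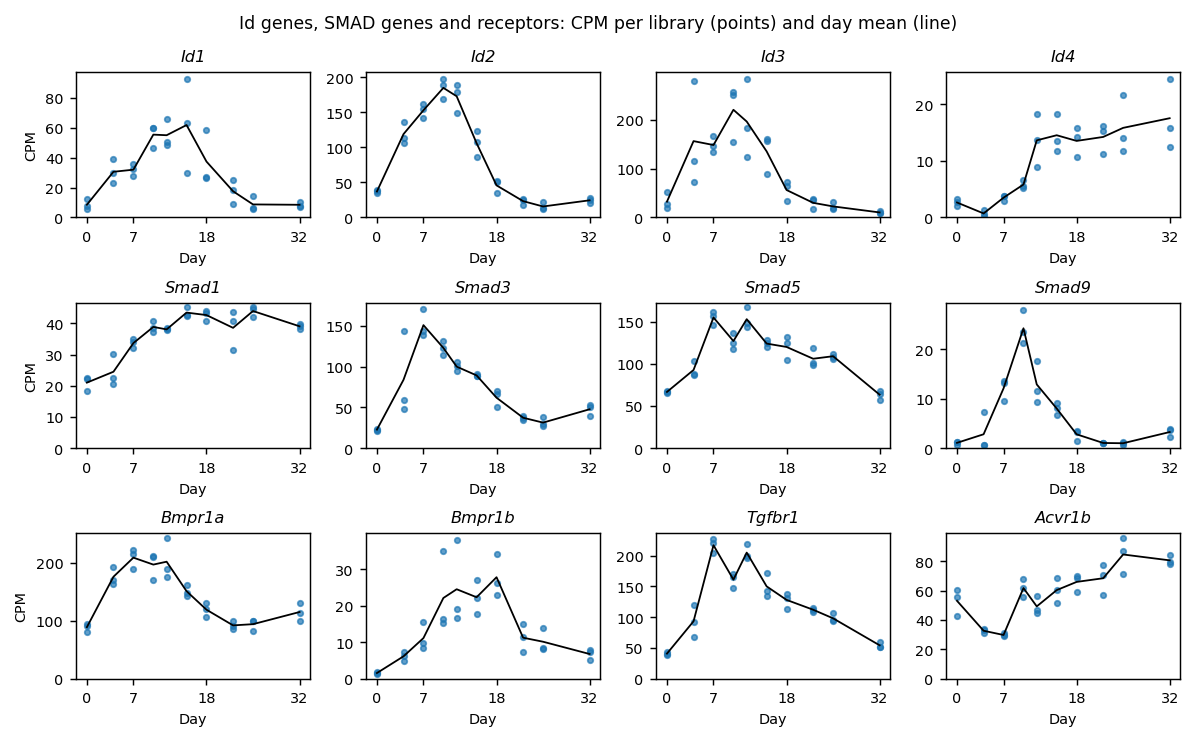
Level in CPM (vertical axes, linear, each scaled to its gene) against day for the 4 Id genes, 4 SMAD genes and 4 receptor genes, with 1 point per library and a line through the day means of 3 libraries. Id2 and Id3 peak at D10, Id4 is highest at D32, and Smad3, Smad9 and Id3 each have 1 D4 library, replicate 3, above the other D4 libraries.

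Beyond the members, 3 lists of pathway genes were counted. Of 16 tested genes known as targets of BMP, TGF-beta or Nodal, 5 were higher (31.2%, all genes 28.8%) and 9 lower (56.2%, all genes 29.6%) at D7 than at D0, with a median of -1.81 beside 0. The share higher lies near its background. Those higher included the BMP targets Tbx2, a T-box gene of the dorsal retina, with 0.328 CPM at D0 and 65.9 CPM at D7 (7.62, SE 0.76, adjusted p = 4.6e-09), and Msx1, with 0.368 and 31.7 CPM (6.41, SE 0.75, adjusted p = 6.6e-08). Those lower included Junb, an immediate TGF-beta target, with 29.1 and 1.07 CPM (-4.76, SE 0.75, adjusted p = 6.6e-06). Tbx3, another T-box gene of the list, had means of 97.8 CPM at D0 and 20.8 CPM at D7. The targets were not counted by pathway. At D4, 3 targets were higher (18.8%, all genes 27%) and 7 lower (43.8%, all genes 24.8%) than at D0: Tbx3 changed by -4.95, Junb by -4.87 and Ctgf by -3.43. Ctgf was at -4.96 without D4 replicate 3 and Junb at -4.2 without D0 replicate 3. Ctgf is also known from fibroblasts, and the feeder markers given above fell over the same span. The part of feeder cells in the falls of Ctgf, Junb and Tbx3 was not tested.

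From D4 to D7, 6 of the 16 targets were higher (37.5%, all genes 20%) and none lower (all genes 22.8%), led by Tbx2 (4.36, SE 0.58), Tbx5 (4.24, SE 0.44), Tbx3 (2.72, SE 0.35) and Atoh8 (2.29, SE 0.44), which were 8.6, 5.47, 3.26 and 4 without D4 replicate 3. Atoh8 was not called in a fit to these days alone (adjusted p = 0.052). At D18, 6 targets were higher (37.5%, all genes 26.8%) and 5 lower (31.2%, all genes 22.23%) than at D7. Msx1 (-4.09, SE 0.63), Msx2 (-3.52, SE 0.44) and Ctgf (-3.39, SE 0.52) fell, and Hey1 rose by 2.98 (SE 0.29). At D32, 8 targets were lower than at D18 (50%, all genes 23.7%) and 1 higher (6.25%, all genes 20.6%): Gata3 rose by 4.83 (SE 0.64, adjusted p = 7.9e-07), while Atoh8 fell by 3.25 and Eomes by 1.94. The fall of Tbx2 by 1.36 (adjusted p = 0.025) was not called by DESeq2 (adjusted p = 0.12).

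Of 27 tested co-receptor, extracellular regulator and convertase genes, 8 were higher (29.6%, all genes 27%) and 14 lower (51.9%, all genes 24.8%) at D4 than at D0, with a median of -1.32 beside 0.02. The share higher lies near its background. Rgma, a BMP co-receptor also known from axon guidance, rose from 2.72 to 83.2 CPM (4.94, SE 0.36, adjusted p = 2.7e-11), and Chrdl1, a secreted BMP antagonist, from 0.374 to 11.3 CPM (4.99, SE 0.34, adjusted p = 1.1e-11). Htra1, a protease that acts on TGF-beta family proteins, fell by 4.28 to D4 and rose by 2.93 from D18 to D32 (SE 0.37, adjusted p = 4e-07), to 67.7 CPM. From D4 to D7, 8 of these genes were higher (29.6%, all genes 20%) and 4 lower (14.8%, all genes 22.8%), among them Ltbp3 (2.03), the convertase gene Pcsk5 (1.99, or 3.59 without D4 replicate 3) and Rgma (-1.23). Pcsk5 was not called in a fit to these days alone (adjusted p = 0.074). From D7 to D18, 7 were higher (25.9%, all genes 26.8%) and 13 lower (48.1%, all genes 22.23%). Thbs1, an activator of latent TGF-beta, changed by -4.54 (SE 0.76) and Pcsk6, which processes Nodal, by -2.66 (SE 0.39), while Tll1, a relative of Bmp1, rose by 3.63 (SE 0.3).

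Of 20 intracellular regulators, 3 were higher (15%, all genes 27%) and 8 lower (40%, all genes 24.8%) at D4 than at D0, with a median of -0.06 beside 0.02. Pmepa1, which dampens SMAD2 and SMAD3 and is itself a TGF-beta target, went from 32.5 CPM at D0 to 1.21 CPM at D4 and 1.61 CPM at D7, then to 54.2 CPM at D18, with changes of -4.72 (SE 0.52, adjusted p = 4.7e-08) and 5.08 (SE 0.51, adjusted p = 1.1e-08). Skil, another inhibitor induced by TGF-beta, had the same course with 186, 58.2, 38.9 and 136 CPM on these days, and its changes were -1.68 to D4 and 1.81 from D7 to D18 (SE 0.23 each). Both were low at D7 and higher at D18, as was Inhbb, but they came back sooner. At D10 and D12, Pmepa1 had means of 14.1 and 33.3 CPM and Skil of 86 and 119 CPM. The Inhbb transcript Inhbb-001 was at 3.08 and 1.89 CPM on those days. Zeb2, a SMAD-binding repressor, rose by 3.3 to D4 (SE 0.17, adjusted p = 5.5e-14). At D32, Tgif2 and Tgif1, corepressors of SMAD2, were lower than at D18 by changes of -2.25 (SE 0.18) and -1.34 (SE 0.23), among 6 regulators lower (30%, all genes 23.7%) and 4 higher (20%, all genes 20.6%), shares near their background.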

How the data were processed

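Poly(A) RNA-seq of 30 libraries was used, 3 on each of 10 days. The tools were Trimmomatic 0.36, kallisto 0.42.4 and edgeR with GRCm38.p4, per the submitters' processing notes. The authors deposited an estimated count per gene, an estimated count per transcript, and a normalised signal (CPM) per gene, and how transcripts were combined into genes is not given in the sources used here. In all, 9 columns matched none of the samples and were left out.

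Gene estimates were rounded and tested with edgeR 4.0.16 in R 4.3.3: filterByExpr (minimum count 10, total 15), TMM scaling, 1 mean per day over all 30 libraries, quasi-likelihood F tests and Benjamini-Hochberg adjustment over 19897 genes. At least 99.73% of the counts of each library were kept. At this depth 1 CPM is 16.77 to 24.53 counts, before TMM scaling. The members, the lists and the pairs of days were chosen with earlier results of these data known. By the rule set, library values are given for members with at least 10 CPM on the higher day. The 6 largest called changes in each direction are named, and up to 4 of each other list. Outside this rule, library values are also given for members whose day means all stayed below 10 CPM, among them Nog, Fst, Bmp6, Bmp15, Gdf10 and Acvrl1. Other members were named after their values were seen. The test was tried on simulated data. Whether replicate numbers pair libraries was checked: the median r of same-numbered deviations was 0.07 and not every pair was above 0.1, so replicate number was not used as a block in the chosen test. Alternatives were RLE factors, library size alone, 2 other filters, summed transcripts, limma 3.58.1 on the deposited signal with 1 or 0.1 added, DESeq2 1.42.0, library set as a term, the days compared alone, a replicate block and leaving out each library. Fits to 1 library set were added after seeing the data. Promoters were from RefSeq, and protein sequences were not used here. Some genes are counted but not reported here by name.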

Additional observations from a re-analysis of the deposited data

How the results depend on the processing

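Under 43 alternatives, 142 of 188 member calls over the 5 pairs of days were kept in each one that could give a value, 46 were lost in at least 1, and 2 turned direction: Acvr1c, D4 vs D0, at -0.6 from summed transcripts and -3.92 without D4 replicate 1, and Nog, D4 vs D0, at -0.85 without D4 replicate 3. Leaving out 1 library at a time gave -3.92 to 3.98 for Acvr1c and -0.85 to 2.53 for Nog. Of 139 calls of other pathway genes named by the same floor, 105 were kept and none turned. Members higher from D4 to D7 numbered 15 with only the days compared. Members lower from D4 to D7 numbered 3 with library size only, 3 with the library set as a term and 3 with only the days compared. Members higher from D18 to D32 numbered 7 with only set 2 libraries, a choice made after seeing the data. The cause was not tested.

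Leaving out 1 library at a time gave 14 to 21 members higher and 21 to 27 lower from D0 to D4, 21 to 30 higher and 2 to 6 lower from D4 to D7, 27 to 32 higher and 18 to 19 lower from D0 to D7, 15 to 19 higher and 22 to 25 lower from D7 to D18, 8 to 11 higher and 15 to 21 lower from D18 to D32, 60 to 61 changed over all days and 51 to 54 over retina days. With the replicate block the counts were 18 and 24, 27 and 4, 30 and 18, 17 and 23, 11 and 16, 60 and 53. The replicate numbers were not taken as pairs, since 57 of 135 same-number correlations were above 0.1 and no label ties them. As a hint from the data, 21 of 30 libraries were nearest to their own number, and replicate 2 of D10 to D25 shares set 1.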
